A study of Bos taurus with 38 samples.

Results

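ACACB (ENSBTAG00000022058) and CPT1A (ENSBTAG00000021999) were 2 of the 12964 genes tested in the Longissimus dorsi (LD) muscle of newborn Bos taurus calves. They were taken by their gene identifiers because earlier results of these same data had called both higher in all 3 selenium (Se) groups. The values that chose them are therefore given below as a description, with no test. The libraries came from needle biopsies taken 12 to 48 h after birth in 38 calves of Angus-cross dams, and polyadenylated RNA was sequenced. The 10 calves of the control group (CTR) had dams given no Se-yeast. Se-yeast was given to the dams of the other calves over 13 weeks, at 105 mg Se per week. The group was named for the trimester of pregnancy in which it was given, 1 for TR1 (9 calves), 2 for TR2 (10 calves) and 3 for TR3 (9 calves). All dams, CTR included, had a mineral supplement with 120 mg/kg Se from sodium selenite. Dams were 5 to 9 years old, and the calves' sex by label was 4 females and 6 males in CTR, 2 and 7 for TR1, 3 and 7 for TR2, and 5 and 4 for TR3. The study's text gives 3 females and 7 males for its 10 CTR calves, and the labels were used here.

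ACACB encodes acetyl-CoA carboxylase beta, the mitochondria-bound enzyme that makes malonyl-CoA in muscle. CPT1A encodes carnitine palmitoyltransferase 1A, best known as the liver form of the enzyme that hands long-chain fatty acids to carnitine for entry into mitochondria. Malonyl-CoA inhibits this step, so that both genes belong to the control point between making and burning fatty acids, and malonyl-CoA decarboxylase (MLYCD) removes the inhibitor. The muscle form of the transferase, CPT1B, was not analysed here because no source used here paired its symbol with a gene identifier.

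Total counts per calf ranged from 12921223 to 17471666, and the TMM factors (the scaling between libraries) from 0.887 to 1.35. Muscle fibre genes checked the labelled tissue, with at least 165215 counts of ACTA1 and 140096 of CKM in every calf. On the first principal component, which held 17.9% of the variance of log2 CPM (counts scaled to library size), 4 calves lay more than 3 scaled median absolute deviations from the median. They were A2052 of TR1 and A2023, A2099 and A2100 of TR2, and A2052 also had the highest TMM factor. ACACB and CPT1A were among the genes that entered this component. The changes of both genes, and of the other genes named as changed, are given with and without them.

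ACACB was read at 1909 to 10153 counts per calf. In CTR its lowest, median and highest TMM-normalised CPM were 150, 202 and 245, with a mean of 203 ± 25.9 (SD, n = 10). TR1 gave 200, 239 and 347 and a mean of 249 ± 46.9 (SD, n = 9). TR2 gave 224, 281 and 802, with a mean of 370 ± 186 (SD, n = 10), and TR3 gave 166, 264 and 323, with a mean of 257 ± 42.8 (SD, n = 9). Every group overlapped CTR. Above the highest CTR calf lay 7 of 10 TR2 calves, 6 of 9 TR3 calves and 4 of 9 TR1 calves, and all 10 TR2 calves lay above the CTR median. The lowest Se calf was A2020 of TR3. In TR2, the highest values were the 802 CPM of A2023, the 554 of A2100 and the 453 of A2099, which are the 3 calves of that group that stand apart. A2083 followed at 373, and the other 6 TR2 calves lay between 224 and 290. The coefficient of variation of ACACB was 50.3% in TR2, against 12.8% in CTR, 18.8% in TR1 and 16.7% in TR3.

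CPT1A was read at 88 to 703 counts per calf. In CTR its lowest, median and highest CPM were 6.85, 12.8 and 19.1, with a mean of 12.9 ± 4.75 (SD, n = 10). TR1 gave 8.87, 13.4 and 27.6 and a mean of 16.7 ± 7.89 (SD, n = 9). TR2 gave 8.25, 16.0 and 55.5, with a mean of 22.1 ± 14.2 (SD, n = 10), and TR3 gave 7.70, 17.0 and 27.9, with a mean of 16.0 ± 6.58 (SD, n = 9). The overlap with CTR was wider than for ACACB: only 3 of 9, 4 of 10 and 3 of 9 calves of TR1, TR2 and TR3 lay above the highest CTR calf. A2023 again had the highest value of all calves, and A2100 (31.7) and A2099 (29.6) followed. The medians of TR1 and CTR differed by less than the SD of either group. For CPT1A the coefficient of variation was 64.3% in TR2, against 36.8% in CTR, 47.2% in TR1 and 41.1% in TR3. In whole muscle, a difference in the cells that carry a transcript and a difference in transcript per cell cannot be told apart.

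**Figure D1:**
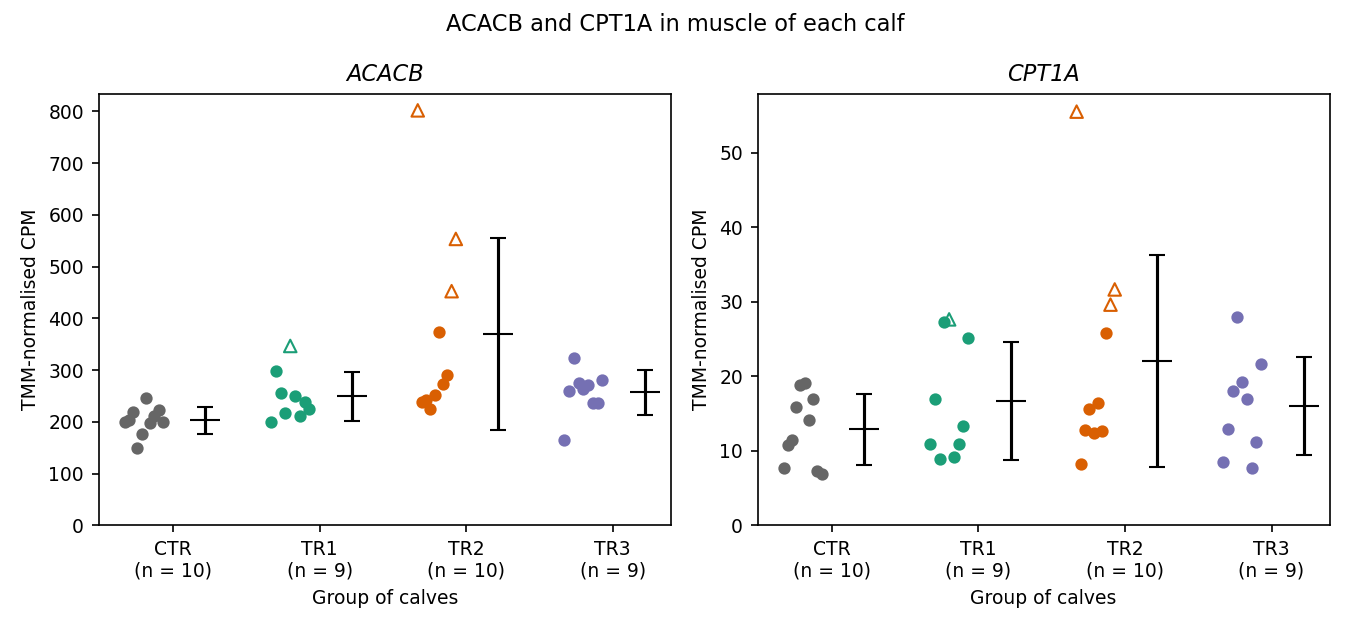
TMM-normalised CPM of ACACB and CPT1A (vertical axes, from 0) in each calf by group. Points are calves, open triangles are the 4 calves that stand apart on the first principal component, and the bars give the mean ± SD. The TR2 calves spread furthest, from 224 to 802 CPM for ACACB and from 8.25 to 55.5 CPM for CPT1A, and every group overlaps CTR.

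In the fit with dam age and calf sex, the log2 fold change of ACACB against CTR was largest in TR2, at 0.84 ± 0.17 (SE), followed by TR3 at 0.31 ± 0.18 and TR1 at 0.25 ± 0.18. CPT1A stood 0.78 ± 0.30 above CTR in TR2 on the same scale, 0.31 ± 0.31 in TR1 and 0.20 ± 0.31 in TR3. As folds, TR2 was at 1.79 times CTR for ACACB and 1.72 times for CPT1A. The 3 comparisons share the CTR calves. Between the Se groups, the order was TR2 first for both genes. ACACB was 0.59 ± 0.18 higher on the log2 scale in TR2 than in TR1 and 0.53 ± 0.19 higher than in TR3, and TR3 and TR1 lay 0.06 ± 0.19 apart. CPT1A was 0.47 ± 0.30 higher in TR2 than in TR1 and 0.58 ± 0.32 higher than in TR3, and TR3 lay at -0.11 ± 0.31 against TR1. The neighbours TR1 and TR3 therefore did not differ beyond their SE in either gene.

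Without the 4 calves that stand apart, the TR2 log2 fold change against CTR was 0.42 ± 0.11 for ACACB and 0.22 ± 0.27 for CPT1A. The values in TR1 were then 0.21 ± 0.11 and 0.26 ± 0.27, and those in TR3 were 0.36 ± 0.11 and 0.23 ± 0.27. For ACACB the order TR2, TR3, TR1 stayed, with TR2 and TR3 now less than 1 SE apart, and for CPT1A the 3 groups lay within 1 SE of each other. Leaving out A2052 alone took the TR1 value of ACACB to 0.15, and leaving out A2092 took that of CPT1A to 0.19. The TR3 value of CPT1A turned to -0.06 without A2065, which has the highest CPT1A of that group. It was 0.13 without A2034, 0.13 without A2096 and 0.14 without A2098, the 3 CTR calves with the lowest CPT1A.

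Among males only, the TR2 log2 fold change was 1.05 ± 0.23 for ACACB and 1.23 ± 0.34 for CPT1A. A2023, A2099 and A2100, the TR2 calves that stand apart, are all males and stayed in this fit. No test of a sex difference in the TR2 change was run. With dam age as a factor, the CPT1A values were 0.18 ± 0.31 in TR1 and 0.07 ± 0.31 in TR3.

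**Figure D2:**
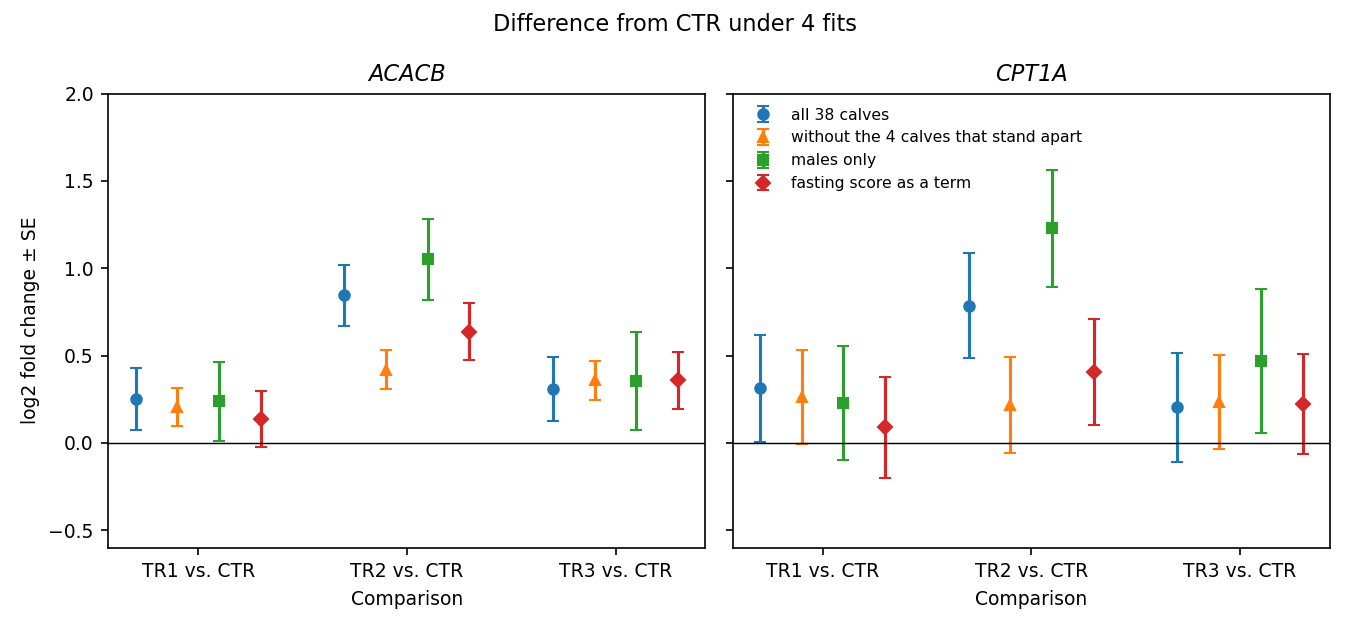
Log2 fold change against CTR (vertical axes, ± SE) of ACACB and CPT1A in TR1, TR2 and TR3 under 4 fits. The TR2 value of ACACB goes from 0.84 to 0.42 when the 4 calves that stand apart are left out. That of CPT1A goes from 0.78 to 0.22. Both are highest in males only, a fit that keeps the TR2 calves A2023, A2099 and A2100, which stand apart.

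The genes had been chosen on a standardised difference, that is, a difference between group means of variance-stabilised values, centred and expressed in SDs of that difference across genes, with a threshold of 1.5. For ACACB this value was 3.99 in TR2, 2.68 in TR3 and 1.81 in TR1, and for CPT1A it was 3.13, 2.10 and 1.85. Both members passed in each comparison. The share of all genes at or above the threshold was 5.35% for TR1, 4.87% for TR2 and 5.89% for TR3, and 0.509% passed in all 3. ACACB ranked 37 of 12964 genes in TR2 and CPT1A ranked 79. That SD was 0.19 on the log2 scale in TR2 and 0.12 in TR3, so that 1.5 is a smaller difference in TR3. With log2 CPM in place of the variance-stabilised values, the TR1 values fell under the threshold, at 1.31 for ACACB and 1.48 for CPT1A. In TR2 ACACB stood at 3.00 and CPT1A at 1.37 when the 4 calves were left out.

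Sex and dam age had no part in the choice, and these were tested. ACACB had a median of 242 CPM in the 14 females (150 to 347) and of 241 in the 24 males (166 to 802). Its log2 difference, female minus male, was -0.11 ± 0.14 (SE), with a 95% interval from -0.38 to 0.17 (edgeR quasi-likelihood F-test, adjusted p = 0.942). CPT1A had a median of 16.4 CPM in females (6.85 to 27.9) and of 13.7 in males (7.24 to 55.5), with a log2 difference of 0.11 ± 0.23, an interval from -0.36 to 0.58 and an adjusted p of 0.973 (edgeR). Neither gene was called, against 0.0309% of all genes at an adjusted p of 0.05 and 6.61% at an unadjusted p of 0.05. Per year of dam age, the log2 slope was -0.05 ± 0.05 for ACACB and -0.11 ± 0.09 for CPT1A (edgeR, adjusted p = 0.993 for both). No gene was called for dam age after adjustment by edgeR or DESeq2, and 436 (3.36%) passed an unadjusted p of 0.05 in edgeR. The 3 calves of dams aged 9 years lay between 204 and 238 CPM of ACACB and between 8.25 and 10.9 CPM of CPT1A. The slope of ACACB was 0.01 without the 4 calves that stand apart and 0.02 without A2023 alone.

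Differences between the calves of a group were not themselves used in the choice, but the 3 TR2 calves that stand apart raised the TR2 means that were. The relation between the genes over all calves and within TR2 is therefore given as a description, with no p. After the group means, sex and dam age were removed from log2 CPM, ACACB and CPT1A had a Pearson's r of 0.61 and a Spearman's rho of 0.51 over the 38 calves. Without the 2 calves farthest from the ACACB median, A2023 and A2100, r was 0.48. With all 4 calves that stand apart left out it was 0.29 over 34 calves. Both genes entered the component that set those calves apart, so that this drop does not decide whether the relation rested on them. The plot of residuals shows these 4 calves together at the upper right. Within TR2, r was 0.88 and rho 0.75 (n = 10). It was 0.68 without A2023 and A2100 (n = 8), and in a fit without all 4 calves it was 0.43 over the 7 left.

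Within TR3, which holds no calf that stands apart, r was 0.72 (n = 9, exact permutation p = 0.0209) and rho 0.77 (exact permutation p = 0.0214). Adjusted over TR3, TR1 and CTR, the 3 groups whose relation is given a p, these were 0.0628 and 0.0642, so that neither passed. Without the 2 calves of TR3 farthest from the ACACB median, A2020 and A2033, r was 0.91 (n = 7, unadjusted exact permutation p = 0.00794). Those 2 were left out by their ACACB values, so that this p does not decide on the relation. In TR3 r was 0.69 without the 4 calves and 0.64 with library sizes. In TR1 r was 0.35 (n = 9, exact permutation p = 0.367, adjusted 0.551) and 0.12 without A2052. In TR1 rho was 0.07 (exact permutation p = 0.880), and r was -0.26 without A2032 and A2052 (n = 7, exact permutation p = 0.568). In CTR r was -0.09 (n = 10, permutation p = 0.805) and rho -0.09 (permutation p = 0.811), and r was 0.45 without A2041 and A2042 (n = 8, exact permutation p = 0.264). A difference in r between groups was not tested.

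**Figure D3:**
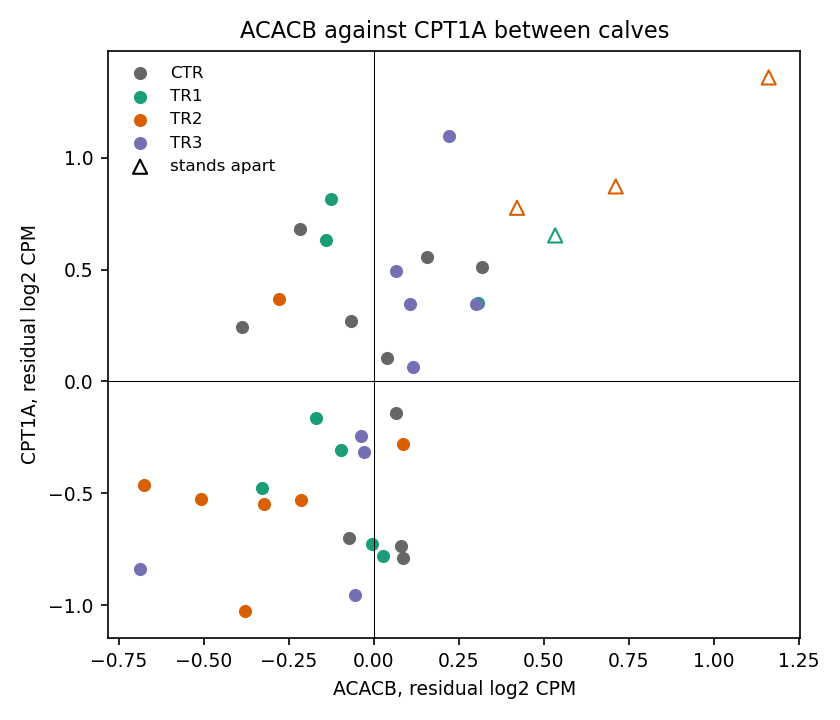
Residual log2 CPM of CPT1A (vertical axis) against that of ACACB (horizontal axis) in 38 calves, after group, sex and dam age were removed. Colours give the group and open triangles the 4 calves that stand apart, which all lie at the upper right. Pearson's r is 0.61 over all calves and 0.29 without those 4.

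Residuals of all genes were also set beside those of ACACB. Of 11676 genes with a mean of at least 1 CPM, the 8 with a symbol and the highest r were EIF3B (0.83), a translation initiation factor subunit, NPM1 (0.82) and NOLC1 (0.81), which work in the nucleolus, NACA (0.82), which binds nascent chains, the chaperones HSP90AB1 (0.80) and CCT3 (0.79), the signal peptide peptidase HM13 (0.79) and the kinase GSK3A (0.79). The lowest r belonged to TET1, SOD3 and NOS1, each at -0.82. These values are a description over calves that share the libraries, and 1184 genes reached an r of at least 0.5 with ACACB. For the 8 genes r ranged from 0.27 to 0.49 without the 4 calves, and none remained among the 8 highest named genes. CPT1A stood at rank 482 of the genes most like ACACB, and at rank 1215 without those calves.

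UCP3, which encodes a mitochondrial uncoupling protein of muscle and is induced when fatty acids are in supply, was the named gene most like CPT1A, with an r of 0.67 and a rho of 0.70. It held rank 4 with all calves and rank 4 without the 4 calves, where r was 0.63. The others given here were PHF23 (0.65), BCL2L1 (0.65), which holds back apoptosis, ATOH8 (0.64), ZNF746 (0.64), NAMPT (0.64), the rate-limiting enzyme of NAD salvage, and the Krüppel-like factor KLF11 (0.64). HERC3 (-0.68), B3GALT2 (-0.67) and OPA3 (-0.66) had the lowest r. Fewer genes reached an r of at least 0.5 with CPT1A (274) than with ACACB. UCP3 alone of the 8 highest remained among the 8 highest named genes without the 4 calves. ACACB stood at rank 31 for CPT1A, and at rank 823 without those calves.

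**Figure D4:**
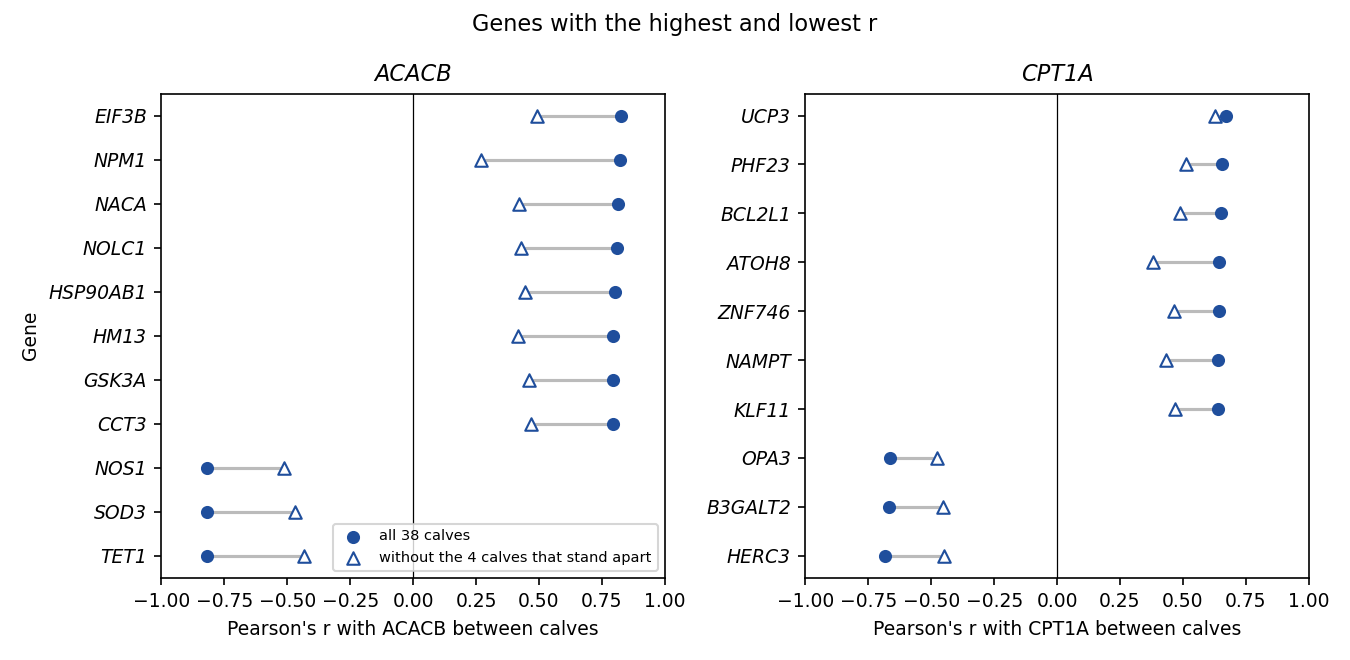
Pearson's r (horizontal axes) of residual log2 CPM with ACACB and with CPT1A for the named genes with the highest and the 3 with the lowest r. Filled points are all 38 calves and open triangles leave out the 4 calves that stand apart. The values for ACACB drop to between 0.27 and 0.49, and UCP3 with CPT1A keeps 0.63.

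The genes around these members were read from lists of 91 other genes, of which 50 could be paired with an identifier and were tested. The pairing came from the study's tables of genes it had called changed in these calves, so that the 50 are not independent evidence of a direction. No list gene passed an adjusted p of 0.05 in any comparison (edgeR quasi-likelihood F-test, Benjamini-Hochberg over all genes), nor did any other gene. With ACACB and CPT1A set aside, DESeq2 also called 0 genes in each of the 3 comparisons. At an unadjusted p of 0.05, TR2 had 19 of the 50 higher and 2 lower, where 5.03% of all genes were higher and 3.31% lower (8.34% together). TR1 had 6 higher and 0 lower, where the shares of all genes were 1.7% and 0.856% (2.55% together). TR3 had 0 higher and 1 lower, with 0.771% and 0.579% of all genes (1.35% together). Among the 2876 genes with a symbol, which share the same selection, 23.1% passed in TR2, 9.04% in TR1 and 4.45% in TR3. The median log2 fold change over the 50 was 0.53 in TR2, 0.33 in TR1 and 0.03 in TR3, where the median of all genes lay between -0.01 and 0.01. The verbs below stand for an unadjusted p under 0.05 only. Of the 21 genes that passed in TR2, 5 did so without the 4 calves that stand apart: MLYCD, LIPE, PNPLA2, GLUL and PCK1. The shares of genes given above are from the fit with all calves. The share that passed in the fit without those 4 is not given here, so that these 5 are not set against a background.

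MLYCD, which degrades the malonyl-CoA that ACACB makes, rose in TR1 and TR2. Its CPM was 61.4 ± 11.2 (SD) in CTR and 80.0 ± 11.7, 93.9 ± 30.2 and 65.9 ± 15.7 in the Se groups in order of trimester, with log2 fold changes of 0.34 ± 0.16 (SE, unadjusted p = 0.034, edgeR), 0.58 ± 0.15 (0.0004) and 0.10 ± 0.16 (0.515). The TR1 and TR2 values were 0.36 ± 0.14 and 0.34 ± 0.14 without the 4 calves. Its residuals had an r of 0.56 with ACACB and 0.57 with CPT1A, and of 0.28 and 0.41 without the 4 calves. ACACA, the cytosolic carboxylase of fatty acid synthesis and paralog of ACACB, had a log2 fold change of -0.05 ± 0.15 in TR1 and -0.04 ± 0.15 in TR2, and it fell in TR3, by 0.35 ± 0.16 (unadjusted p = 0.0338, edgeR) and by 0.36 ± 0.15 without the 4 calves. SREBF1 and MLXIPL, transcription factors that drive lipid synthesis genes, rose in TR1, by 0.54 ± 0.17 and 0.51 ± 0.22 on the log2 scale (unadjusted p = 0.00298 and 0.0274, edgeR), and by 0.57 ± 0.18 and 0.50 ± 0.23 without those calves. The carnitine and organic cation carrier SLC22A4 was the only other gene of the carnitine shuttle list that could be read, with 0.57 ± 0.39 in TR1 and 0.73 ± 0.37 in TR2, neither past the threshold.

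AMPK, the kinase that phosphorylates and inhibits the carboxylases, had 7 list genes tested. In TR2, CAB39 (0.43 ± 0.17) and STRADB (0.58 ± 0.21), partners of the upstream kinase LKB1, and the adiponectin receptor ADIPOR2 (0.48 ± 0.19) rose. None of the 3 passed without the 4 calves, where they stood at -0.002 ± 0.10, 0.10 ± 0.14 and 0.19 ± 0.16. The subunits PRKAA2, PRKAB2 and PRKAG3 stood at -0.08 ± 0.24, -0.16 ± 0.16 and 0.13 ± 0.33. The residuals of PRKAA2 and PRKAB2 ran against ACACB, with an r of -0.60 and -0.64, and of -0.52 and -0.33 without the 4 calves. Of the 4 beta-oxidation list genes tested, the acyl-CoA binding protein DBI fell in TR2, by 0.61 ± 0.28, and stood at -0.30 ± 0.23 without the 4 calves. EHHADH and ACSL1 did not pass, at -0.34 and 0.21 on the log2 scale. The residuals of EHHADH had an r of -0.76 with ACACB and -0.60 with CPT1A, and of -0.30 and -0.34 without the 4 calves. Those of DBI went from -0.68 and -0.48 to -0.44 and -0.18. For ACSL1 r was 0.14 with ACACB and -0.01 with CPT1A.

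Among the 11 PPAR and PGC-1 genes tested, UCP3 (1.17 ± 0.38), UCP2 (0.65 ± 0.23) and the lipid droplet coat gene PLIN2 (1.10 ± 0.37) rose in TR2 on the log2 scale, and the coactivator PPARGC1A fell by 0.60 ± 0.23. When the 4 calves were left out none of these passed, at 0.57 ± 0.35, 0.45 ± 0.24, 0.02 ± 0.26 and -0.42 ± 0.21. UCP3 had a mean of 99.9 CPM in TR2, against 48.5 in CTR, 53.0 in TR1 and 59.8 in TR3. Of the 3 lipolysis genes, the lipases LIPE (0.94 ± 0.28 in TR1 and 0.92 ± 0.27 in TR2) and PNPLA2 (0.83 ± 0.39 and 1.19 ± 0.36) rose in both groups. The TR1 rise of PNPLA2 was lost without the 4 calves, at 0.12 ± 0.16 in TR1 and 0.43 ± 0.16 in TR2, where LIPE had 0.60 ± 0.19 and 0.46 ± 0.19. The residuals of LIPE had an r of 0.58 with ACACB and 0.63 with CPT1A, and of 0.36 and 0.56 without those calves. Those of PNPLA2 went from 0.67 and 0.46 to 0.41 and 0.13. PCK1, a gluconeogenic enzyme read at under 1 CPM in CTR, rose by 1.07 ± 0.38 in TR1 and 1.17 ± 0.37 in TR2, and by 1.05 ± 0.34 and 1.25 ± 0.33 without the 4 calves. The glucose transporter SLC2A1, the hexokinase HK2 and PFKFB3, which makes an activator of glycolysis, rose in TR2 by 0.90 ± 0.31, 0.53 ± 0.24 and 0.92 ± 0.44, and did not pass without those calves, at 0.21 ± 0.25, 0.37 ± 0.24 and 0.58 ± 0.43.

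All 12 genes of the glucocorticoid and fasting list were tested. GLUL (1.75 ± 0.51), NAMPT (1.64 ± 0.41), FKBP5 (1.49 ± 0.44), CEBPD (1.45 ± 0.55), HIF3A (0.94 ± 0.41) and FOXO3 (0.77 ± 0.38) rose in TR2. Of these 6, GLUL alone passed without the 4 calves (0.57 ± 0.23), and the others stood at 0.36 ± 0.20, 0.59 ± 0.37, 0.28 ± 0.27, 0.46 ± 0.32 and 0.18 ± 0.20. None of the 12 passed in TR1 or TR3 with all calves. Their mean z score was highest in A2052 (3.00), A2099 (2.00), A2090 (0.96), A2100 (0.93) and A2023 (0.62), and its residual had an r of 0.51 with ACACB and 0.45 with CPT1A. With the score as a term in the fit, the TR2 log2 fold change was 0.64 ± 0.16 for ACACB and 0.41 ± 0.30 for CPT1A, and the TR1 values were 0.14 ± 0.16 and 0.09 ± 0.29. The score stands only for the expression of these 12 genes, and its part in the group differences was not tested. Without the 4 calves, 6 list genes passed in TR3, which were LIPE (0.44 ± 0.20), PNPLA2 (0.39 ± 0.17), PCK1 (0.89 ± 0.35) and MLXIPL (0.53 ± 0.23) as higher and ACACA and KLF15 (-0.70 ± 0.29) as lower. The share of all genes that passed in that fit is not given here, so that these 6 are not set against a background.

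**Figure D5:**
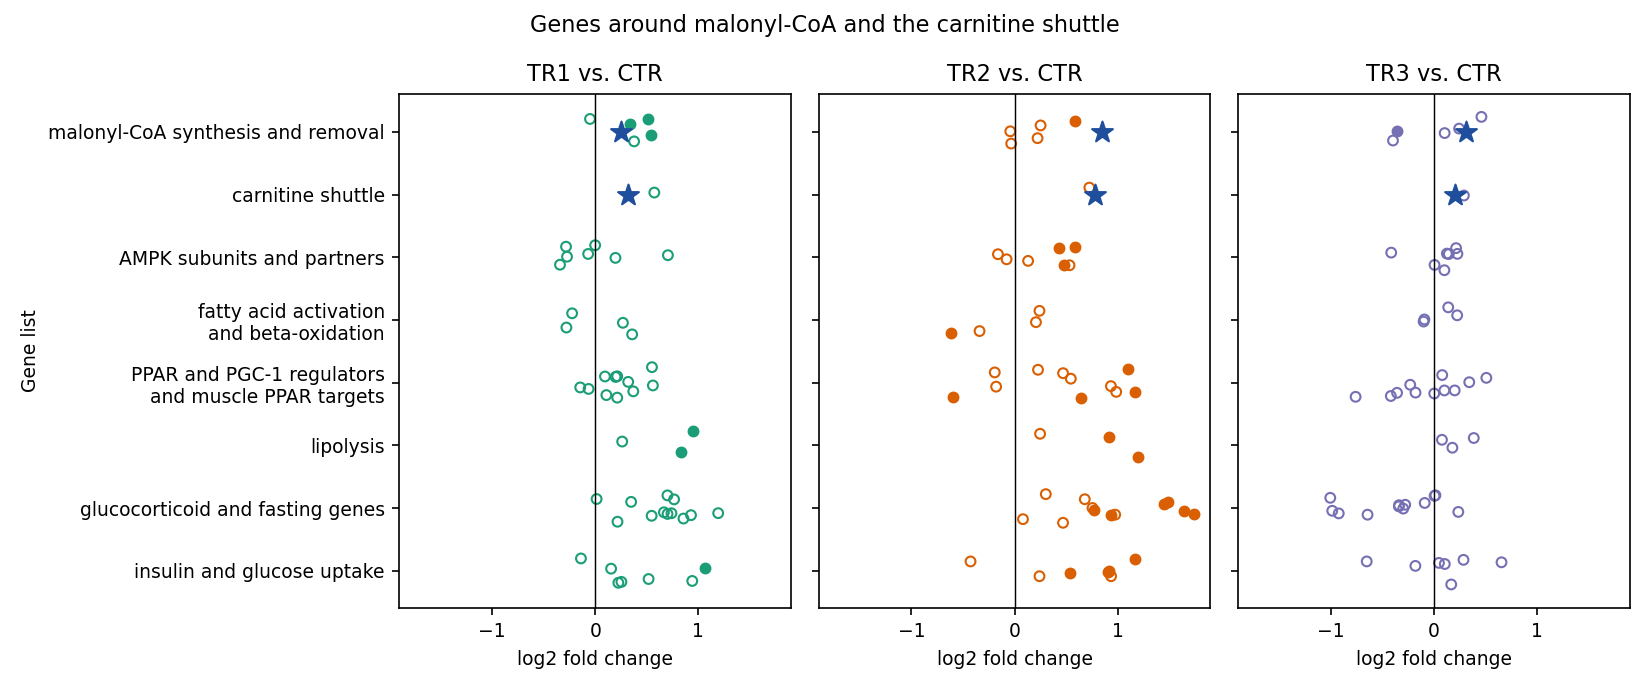
Log2 fold change against CTR (horizontal axes) of the list genes tested, by list (vertical axis), in TR1, TR2 and TR3. Filled points passed an unadjusted p of 0.05 and stars are ACACB (malonyl-CoA list) and CPT1A (carnitine shuttle list), which were not tested. Of 50 genes other than the members, 21 are filled in TR2, 6 in TR1 and 1 in TR3.

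Markers of other cells were read beside both genes. Their symbols were paired from the same study tables, so that these markers are not an unselected sample of each cell type. For the 3 of 5 leukocyte markers that could be tested, the summed CPM ranged from 20.5 to 240 in TR2, against 71.0 to 332 in CTR, 46.6 to 231 in TR1 and 71.6 to 250 in TR3, with a residual r of -0.61 with ACACB and -0.38 with CPT1A, and of -0.28 and -0.07 without the 4 calves. Most of this sum was CD74, at a mean of 137 CPM in CTR against 30.9 for MRC1 and 1.39 for PTPRC. With ACACB, r was -0.53 for CD74, -0.70 for MRC1 and -0.35 for PTPRC. These were -0.21, -0.39 and 0.12 without the 4 calves. For 2 of 3 fibroblast markers the sums ranged from 56.7 to 138 in TR2, against 106 to 266 in CTR, 52.6 to 474 in TR1 and 71.3 to 233 in TR3, with an r of -0.45 and -0.23 (-0.13 and 0.07 without those calves). COL1A1, which made most of this sum, had an r of -0.47 with ACACB and PDGFRA had -0.10. Without those calves they had -0.16 and 0.20. For 6 of 7 muscle fibre markers the sums ranged from 77110 to 131600 in TR2, against 77100 to 128100 in CTR, 36850 to 122400 in TR1 and 65830 to 128900 in TR3, with an r of -0.38 and -0.16 (-0.27 and 0.01). DES went the other way, with an r of 0.50 with ACACB and of 0.45 without those calves. With all calves, r with ACACB was -0.36 for ACTA1, -0.16 for CKM, -0.23 for MYH1, -0.24 for MYH2 and -0.43 for MYH4. The part of these cells in the differences of ACACB and CPT1A was not tested. For 4 of 7 adipocyte markers the sums ranged from 22.9 to 66.4 in TR2, against 19.6 to 47.5 in CTR, 23.1 to 89.6 in TR1 and 13.5 to 45.0 in TR3, with an r of 0.32 and 0.14 (0.05 and -0.11). Most of this sum was AGPAT2, at a mean of 25.1 CPM in CTR against 2.94 for PLIN1, 1.85 for FABP4 and 0.43 for ADIPOQ. With ACACB, r was 0.33 for AGPAT2, 0.24 for FABP4, 0.09 for ADIPOQ and -0.36 for PLIN1. The defining adipocyte marker ADIPOQ had a median of 2.5 counts and was at 0 in 13 calves. The other lists (endothelium, smooth muscle, red blood cell, satellite cell and myoblast) had an r between -0.19 and 0.19 with ACACB and between -0.09 and 0.16 with CPT1A. In the satellite cell and myoblast list, r with ACACB was -0.53 for PAX7, -0.20 for MYOD1 and -0.14 for MYOG. At an unadjusted p of 0.05, the fibroblast markers PDGFRA (-0.46 ± 0.17 on the log2 scale) and COL1A1 (-0.60 ± 0.26) were lower and the endothelial marker VWF (0.35 ± 0.16) was higher in TR2, at -0.41 ± 0.18, -0.42 ± 0.24 and 0.28 ± 0.15 without the 4 calves, where PDGFRA alone passed. Of the adipocyte markers, ADIPOQ passed as lower in TR2 (-2.08 ± 0.99, and -2.28 ± 1.13 without those calves, where it did not pass), while FABP4 (-0.70 ± 0.68), PLIN1 (0.05 ± 0.32) and AGPAT2 (0.38 ± 0.23) did not, and the median of their summed CPM was 33.3 in TR2 and 29.8 in CTR.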

How the data were processed

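The authors trimmed the reads, mapped them to ARS-UCD1.2 with STAR 2.7.3a (per the labels) and counted them per Ensembl gene in the aligner's gene count mode. The deposited values are these raw counts for 27607 genes in 38 calves, 21038 of them with at least 1 count. The strand setting of the kept counts is not given in the sources used here, so that overlapping genes are uncertain. Here, edgeR 4.0.16 (R 4.3.3) kept 12964 genes by filterByExpr, normalised with TMM and fitted dam age (linear), calf sex and group to all 38 calves. Quasi-likelihood F-tests were adjusted by Benjamini-Hochberg, and SEs were taken from the fold change and its F value. CPM used TMM library sizes, and residuals came from log2 CPM with a prior count of 2. The variance-stabilising transformation was that of DESeq2 1.42.0. Correlations used 100000 permutations, or all for under 10 calves (Python 3.11.15). The members and the gene lists were chosen with earlier results of these data known. List genes past an unadjusted p of 0.05 are named with values, beside the 8 genes with a symbol of highest and 3 of lowest r. Symbols came from the study's supplementary gene tables and cover 2876 genes. Counts were also tested on simulated data. Alternatives were other tools, scalings, filters, covariates and sets of calves. Sequences were not used here. The results of 2 genes that these rules name are not reported here. The labels give no batch, and each calf is 1 library.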

Additional observations from a re-analysis of the deposited data

Results flagged for a closer look

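CPT1A in calf A2023 of TR2 stood at 55.5 CPM and the next TR2 calf at 31.7 CPM, a gap of 0.505 of the group's range, where Dixon's critical value for 10 samples is 0.466. The TR2 values had chosen the gene, so that the gap is a description and no test. On the log2 scale the gap was 0.295, under that value. The same calf had the highest ACACB, at 802 CPM, with a gap of 0.43, and 0.291 on the log2 scale. Of 8 sets of CPM values (2 genes in 4 groups), 1 lay over the critical value, and chance passes about 1 in 20. On the log2 scale another did, the ACACB of A2020, the lowest TR3 calf, with a gap of 0.526 against 0.493 for 9 samples. Without A2023, the TR2 log2 fold change was 0.56 for CPT1A and 0.65 for ACACB.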

How the results depend on the processing

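No paired analysis was possible because the labels number no calves across groups. DESeq2, library sizes in place of TMM, no filter, a robust fit, no covariates, dam age as a factor, the groups compared alone and the fasting score as a term left ACACB and CPT1A higher in TR1, TR2 and TR3. Without the 4 calves that stand apart, chosen as an alternative after seeing the data like males only, ACACB in TR2 went to 0.42, its dam age slope to 0.0054, the correlation with CPT1A to 0.29, the list genes at an unadjusted p of 0.05 to 5 in TR2 and 6 in TR3, and the named most alike genes shared with the 8 to 0 for ACACB and 1 for CPT1A. Spearman's rho shared 3 and 4 of those 8. The list count in TR1 (6) was 11 with library sizes and 16 without covariates, that in TR2 (21) was 12 with dam age as a factor, and that in TR3 (1) was 3 with DESeq2, 3 without a filter, 0 with library sizes, 2 without covariates, 2 with dam age as a factor and 6 with only the groups compared. The shares of all genes in these alternative fits are not given here, so that their list counts are a description. CPT1A between sexes turned to -0.069 with sex alone in the fit, and r within CTR to 0.023 with library sizes. The causes were not tested.

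With each calf left out in turn, ACACB ranged from 0.15 to 0.30 in TR1, 0.65 to 0.91 in TR2 and 0.25 to 0.38 in TR3, and CPT1A from 0.19 to 0.41, 0.56 to 0.92 and -0.06 to 0.29. The dam age slope of ACACB ranged from -0.074 to 0.020 (the latter without A2023), that of CPT1A from -0.17 to -0.03. The sex difference ranged from -0.19 to -0.07 for ACACB and 0.02 to 0.21 for CPT1A. The correlation over all calves ranged from 0.52 to 0.64, and that in CTR from -0.36 to 0.10. It ranged from 0.12 to 0.52 in TR1, 0.81 to 0.92 in TR2 and 0.71 to 0.80 in TR3. The 88 to 703 counts of CPT1A per calf limit its precision more than the counts of ACACB do. Within groups, the SD of log2 CPM was 0.68 for CPT1A and 0.38 for ACACB, and the part of the counts in this was not tested.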
